A study of Ictalurus furcatus with 60 samples.

Results

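The 200 genes described here were those whose share of the counts varied least over 60 sperm libraries of blue catfish (Ictalurus furcatus). Levels were CPM (a gene's count per 1000000 counts of its library). Of 33677 genes in the tables, 16726 averaged 10 CPM or more over the 60 libraries, and the 200 with the lowest coefficient of variation (SD divided by mean, over all libraries of both treatments) were taken. The spread of these genes is therefore what chose them and is given as a description. The deposited identifiers carry no gene names, and 0 of the 200 matched a gene of the RefSeq table at hand, so no symbol, role or position is given and no check against markers of sperm or of other cells could be made.

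The study took sperm from 30 males, which in catfish farming are crossed with channel catfish females, to look for transcripts of cryopreserved sperm that go with hatch success. Sperm of each male was divided, and a cryopreserved part (taken through a cryopreservation procedure, 30 libraries) stood beside a fresh part (put straight into a deep freezer, 30 libraries). Each male gave 1 library per treatment, so the libraries of a group came from separate animals. Age, strain and hatch rate of the males were not used here, and the labels name both a kit for total RNA without ribosomal RNA and polyA RNA, so that the RNA fraction is uncertain.

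Ripe sperm are known in many animals to make little or no new RNA, because their chromatin is tightly packed, and the RNA they carry is largely left from earlier stages of their formation. Genes with even levels are commonly sought as reference genes, against which other transcripts are measured. Whether a gene looks even depends on the scale on which libraries are made comparable.

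Total counts ranged from 929243 to 62118941 in cryopreserved libraries and from 1503064 to 24396207 in fresh libraries, and 8 cryopreserved and 9 fresh libraries held under 50% of the median total. Libraries also differed in how evenly their counts were spread over genes. The median gene of a library had 1.71 to 13.9 CPM in cryopreserved and 2.20 to 13.8 CPM in fresh libraries, and a low median marks a library whose counts lie on fewer genes. In 10 males the medians of the 2 libraries differed by over 2-fold, with the cryopreserved library higher in 6 and the fresh library in 4. Males 1 to 4 were among them. The median gene had 4.21, 5.92 and 3.69 CPM in the cryopreserved libraries of males 1, 2 and 3, against 13.4, 13.6 and 13.5 CPM in their fresh libraries, while male 4 had 13.4 CPM in its cryopreserved and 3.86 CPM in its fresh library. Males 5, 16, 22, 28 and 41 had the direction of male 4, and male 35 had that of males 1 to 3. Whether labels were exchanged, for male 4 or for others, was not tested, and results are also given without male 4.

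The 200 genes had coefficients of variation between 9.15% and 16.7%, with a median of 15.4%, where the other 16526 genes above 10 CPM had a median of 59.9%. Only 5 of the 200 were under 11%, 17 lay from 11% up to 13%, 62 from 13% up to 15%, and 116 at 15% or more. There was no gap at the limit of the list. AUIFUG00000019690 and AUIFUG00000012945, the last genes inside, had 16.6% and 16.7%, and AUIFUG00000011919 and AUIFUG00000031119, the first outside, both had 16.7%. Over the 60 libraries the highest level of a gene was 1.55 to 3.71 times its lowest, with a median of 2.16 times. The range was under 2-fold for 56 of the 200 genes and for 5 of the 16526 others. None of the 200 was without counts in any library, and their lowest count in a library was 18, while 2883 of the other genes had a count of 0 somewhere.

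**Figure D1:**
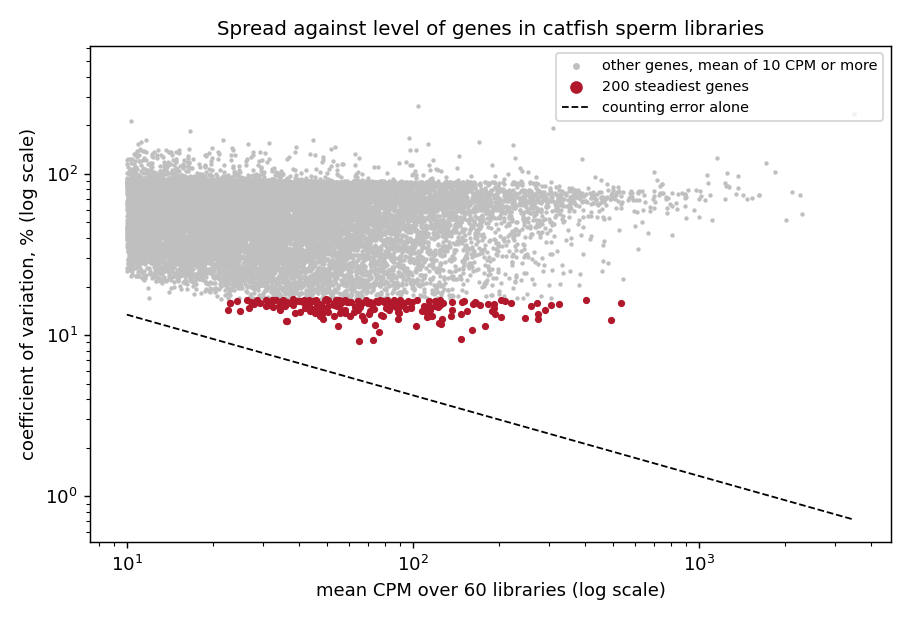
Coefficient of variation (percent, log scale) against mean CPM over the 60 libraries (log scale) for the 200 steadiest genes (red) and the other genes averaging 10 CPM or more (grey). The dashed line is the spread that independent counting alone would give at these depths, and the 200 genes lie above it, at 9.15% to 16.7%, along the lower edge of the cloud.

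Counting error made up part of this spread. Independent counts would give the 200 genes a coefficient of variation of 1.83% to 8.92%, and the measured value was 1.61 to 8.65 times that, with a median ratio of 2.89. For the other genes above 10 CPM the median ratio was 7.41. AUIFUG00000011902, which had the lowest mean level of the list (22.5 CPM), was nearest to counting error, with 14.3% measured and 8.92% from counting. AUIFUG00000005309, with the highest mean level (533.4 CPM), was farthest from it, with 15.9% measured and 1.83% from counting. If the 2 reads of a fragment were counted apart, on which the sources used here are silent, the counting error would be larger than stated.

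Most genes of the list lay in the upper part of the count levels above 10 CPM. CPM are not divided by gene length, so the level is a number of counts and not of molecules. The means of the 200 genes ran from 22.5 to 533.4 CPM with a median of 68.1 CPM. The other genes above 10 CPM had a median of 29.1 CPM and an upper quartile of 57.5 CPM. None of the 5438 genes between 10 and 20 CPM was a member, and the lowest coefficient of variation among them was 16.9%, where counting alone gave a median of 11.2%. Members made up 1.03% of the 6334 genes from 20 up to 50 CPM, 2.76% of the 2858 genes up to 100 CPM, 2.87% of the 1427 genes up to 200 CPM and 2.52% of the 556 genes up to 500 CPM. Of the 113 genes at 500 CPM or more, 1 (0.885%) was a member. None of the 100 genes with the highest mean in fresh sperm was among the 200.

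The gene with the smallest spread was AUIFUG00000016699. Its lowest, median and highest levels were 53.8, 67.5 and 71.8 CPM in cryopreserved libraries and 50.4, 64.5 and 78.0 CPM in fresh libraries. The range of the cryopreserved libraries lay within that of the fresh ones. It averaged 65.3 ± 5.57 CPM in cryopreserved and 64.8 ± 6.39 CPM in fresh sperm (SD, n = 30 each) and was higher in the cryopreserved library in 19 of 30 males.

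AUIFUG00000007722 had 56.0, 71.5 and 79.4 CPM as lowest, median and highest level in cryopreserved libraries, against 55.0, 73.5 and 88.0 CPM in fresh libraries. Its means were 70.2 ± 6.24 CPM in cryopreserved and 74.7 ± 6.62 CPM in fresh sperm, and the level was higher after cryopreservation in 6 of 30 males. The groups overlapped over nearly their whole range. AUIFUG00000022333 ran at a higher count level, with 120.3, 147.5 and 182.6 CPM in cryopreserved libraries and 117.7, 147.7 and 175.0 CPM in fresh libraries. The group medians were close, and the level was higher after cryopreservation in 17 of 30 males. AUIFUG00000022641 had 54.6, 77.4 and 92.9 CPM in cryopreserved libraries and 60.2, 75.9 and 87.4 CPM in fresh libraries. Its coefficient of variation was 13.1% over cryopreserved and 7.14% over fresh libraries, so that its place in the list rested more on the fresh ones.

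**Figure D2:**
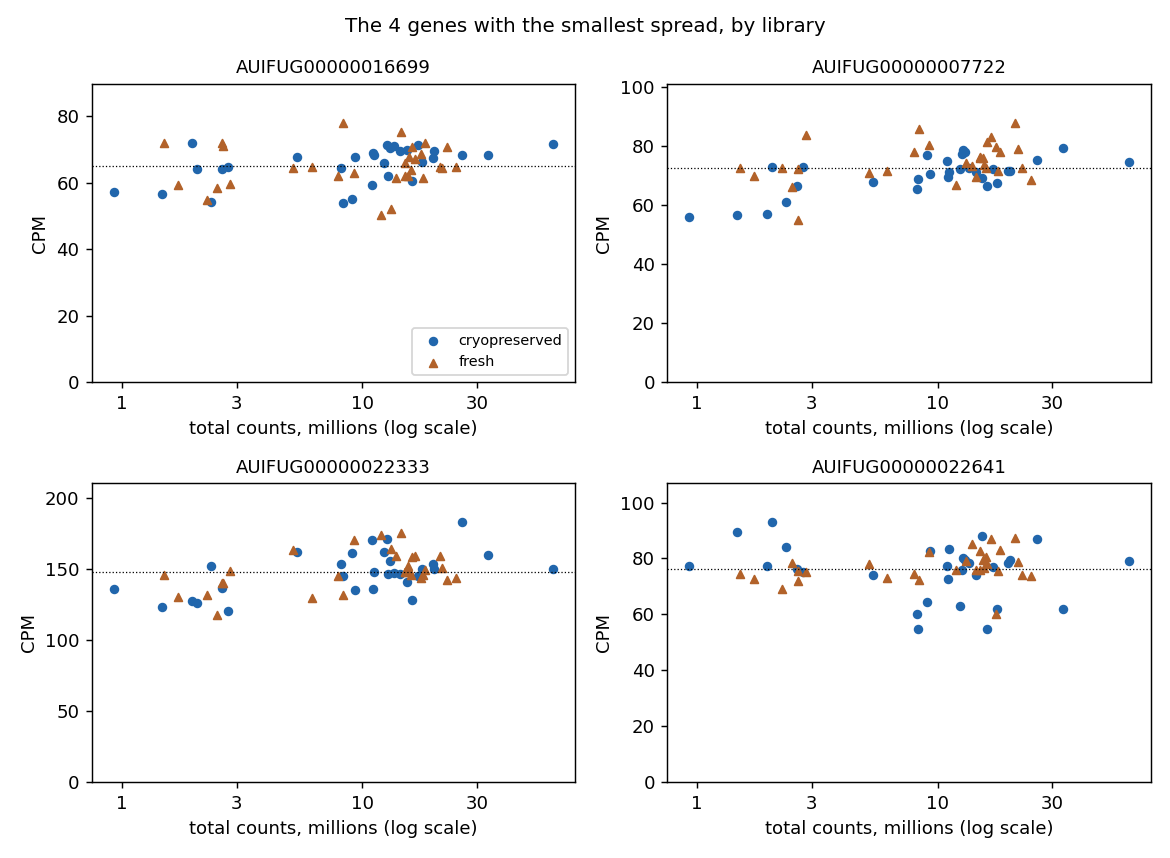
CPM of the 4 genes with the smallest spread against total counts (log scale), with 1 point per cryopreserved (circle) or fresh (triangle) library and the mean over 60 libraries as a dotted line. AUIFUG00000016699 stays between 50.4 and 78.0 CPM over the whole range of depth.

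At the ends of the level range, the values were as follows. AUIFUG00000005309 had 397.8, 536.8 and 667.2 CPM as lowest, median and highest level in cryopreserved libraries, against 367.5, 536.8 and 789.0 CPM in fresh libraries, with nearly equal medians. AUIFUG00000010800 had 312.8, 488.9 and 633.4 CPM in cryopreserved libraries and 396.5, 504.8 and 584.7 CPM in fresh libraries, a wider range after cryopreservation. AUIFUG00000011902 had 12.8, 21.9 and 34.3 CPM in cryopreserved libraries and 16.9, 22.2 and 26.0 CPM in fresh libraries. AUIFUG00000008608 had 13.8, 22.5 and 31.2 CPM in cryopreserved libraries and 18.6, 22.7 and 38.3 CPM in fresh libraries. In each of these genes the cryopreserved and fresh libraries overlapped.

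The 200 genes together took a nearly constant share of the counts. Their sum was 1.81% ± 0.0948 of the counts in cryopreserved and 1.86% ± 0.0883 in fresh libraries (SD, n = 30 each), with ranges of 1.59% to 2.04% and 1.71% to 2.05%. The sum was higher in the cryopreserved library in 9 of 30 males, and the mean difference within males, cryopreserved minus fresh, was -0.0499 with an SD of 0.109 in percent of counts. Without male 4 it was -0.0451, and 9 of 29 males had the higher sum after cryopreservation. The sum of a list chosen on these libraries was given no test.

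**Figure D3:**
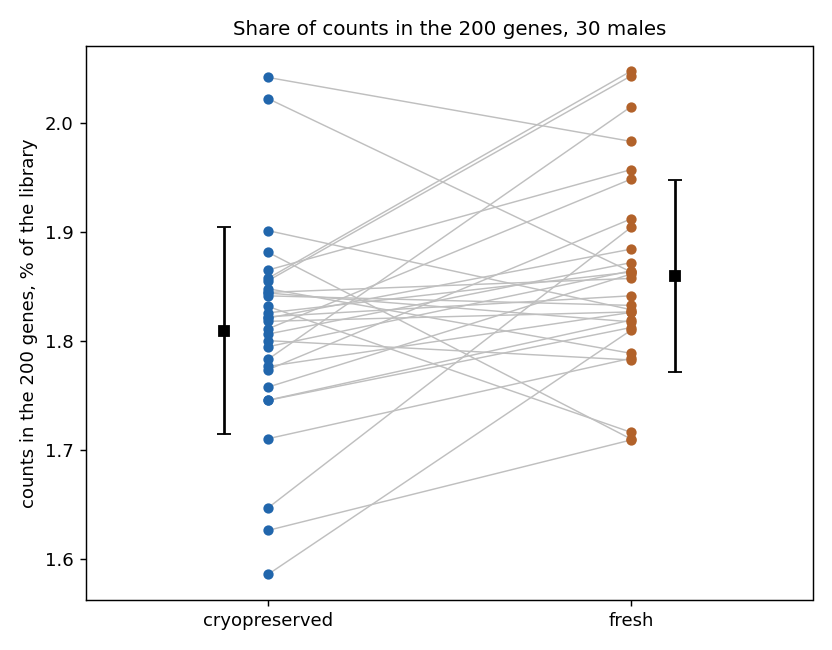
Sum of the 200 genes as percent of the counts of each library, with the cryopreserved and fresh library of a male joined by a line and the mean ± SD of each group as a square with bars. Cryopreserved libraries average 1.81% and fresh libraries 1.86%, and the groups overlap; the axis does not start at 0.

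The sum was tighter in libraries with an even profile. In the 27 libraries whose median gene had 10 CPM or more (13 cryopreserved, 14 fresh), the sum lay between 1.71% and 1.87%. In the 33 others it lay between 1.59% and 2.05%. Libraries under 50% of the median total were mostly among these 33, so evenness and depth are mixed here. By depth, the sum was 1.59% to 1.90% in the 8 cryopreserved libraries under that limit and 1.75% to 2.04% in the 22 above it. In fresh libraries it was 1.71% to 1.95% in the 9 under the limit and 1.78% to 2.05% in the 21 above it. Extremes of single genes came from many libraries. The lowest levels of the 200 genes were spread over 32 libraries and the highest over 38. The cryopreserved library of male 11, with 1466559 counts, held the lowest value of 35 members, that of male 36 of 24 and that of male 44 of 20. The fresh library of male 4 held the highest value of 20 members, the cryopreserved library of male 35 that of 18 and the fresh library of male 6 that of 16. Libraries under 50% of the median total held the lowest value of 136 and the highest of 75 of the 200 genes. Libraries with a median gene under 10 CPM held the lowest value of 170 and the highest of 173.

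The spread within each treatment was close to that over both. The coefficient of variation of the 200 genes had a median of 15.3% over cryopreserved libraries (range 8.52% to 20.8%) and of 14.2% over fresh libraries (range 7.14% to 19.4%). It was wider in cryopreserved libraries for 125 of the 200 genes (62.5%) and for 52.7% of the other genes above 10 CPM, a difference that was not tested. The same rule was also applied to one treatment alone, and the 200 genes it gave were measured in the other. Those other libraries came from the same males, so the values are a description and no independent check. The 200 chosen on fresh libraries had a median coefficient of variation of 17.6% in cryopreserved libraries (range 8.52% to 38.7%), where all 16731 genes above 10 CPM there had a median of 60.8%. The 200 chosen on cryopreserved libraries had 16.3% in fresh libraries (range 7.14% to 28.2%), against 58.3% for all 16657 genes. These choices on one treatment shared 77 genes, 38.5% of each list.

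No member was called different between cryopreserved and fresh sperm in a test over all genes, which did not pair the libraries of a male. In edgeR's quasi-likelihood test with TMM scaling, a scaling that sets the bulk of genes equal between libraries, 0 of the 200 genes and 0 of all 32336 genes tested (0%) had a Benjamini-Hochberg adjusted p under 0.05. At an unadjusted p under 0.05 there were 0 of the 200 genes, beside 716 of all genes (2.21%). DESeq2 gave 1 of the 200, beside 2.36% of all genes, and limma voom gave 0, beside 2.58%. The log2 fold change, cryopreserved over fresh, had a median of -0.10 over the 200 genes and of 0.02 over all genes, with 14 of the 200 above 0 and 186 below. That split depended on male 4 and on the tool, since 60 were above 0 and 140 below without male 4, and 93 above and 107 below by DESeq2. The median over the 200 genes was -0.04 without male 4, and -0.15 without the 10 males with a library under 50% of the median total. With total counts, the scale on which the genes were chosen, the median was -0.04 over the 200 genes and 0.02 over all genes, with 51 above 0 and 149 below. On that scale 9 of the 200 genes had an unadjusted p under 0.05, all 9 lower after cryopreservation, beside 1.6% of all genes (516), and 0 passed the adjustment. How many of those 516 were lower is not given here. A large treatment difference would have widened the spread and kept a gene off the list, so these small differences were in part set by the choice.

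The intervals of the fold change were narrow on the scale of total counts. Their width comes from the spread between libraries that chose the genes, so they are a description. They are approximate, since edgeR's standard errors were derived here from the test statistic. With total counts the 95% interval of the fold change lay within 1.5-fold in both directions for all 200 genes and within 1.2-fold for 188 of them, against 33.0% and 3.80% of all genes. With TMM it lay within 1.5-fold for 181 of the 200 and within 1.2-fold for 0, against 34.7% and 1.99% of all genes. The median half-width of the interval was 0.14 (log2) with total counts and 0.37 with TMM. With the male as a block and total counts, 0 of the 200 genes were called, and their median log2 fold change was -0.04. In that fit 11 of the 200 (5.50%) had an unadjusted p under 0.05, beside 847 of all genes (2.62%). All 11 were lower after cryopreservation, and the share of this direction among the 847 is not given here.

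The genes with the largest differences show their size. AUIFUG00000003269 had 29.3, 58.1 and 77.8 CPM as lowest, median and highest level in cryopreserved libraries, against 47.4, 64.5 and 83.2 CPM in fresh libraries. The groups overlapped, and the level was higher after cryopreservation in 5 of 30 males. The fitted log2 fold change was -0.30 (SE 0.19, edgeR adjusted p = 1.00) with TMM and -0.19 (SE 0.07, edgeR adjusted p = 1.00) with total counts. AUIFUG00000014539 had 28.4, 37.1 and 52.9 CPM in cryopreserved and 28.9, 41.9 and 61.9 CPM in fresh libraries, and was higher after cryopreservation in 7 of 30 males. The fitted log2 fold change was -0.26 (SE 0.21) with TMM and -0.18 (SE 0.07) with total counts. With the male as a block and total counts the values were -0.21 (SE 0.07) for AUIFUG00000003269 and -0.17 (SE 0.07) for AUIFUG00000014539. Neither gene was called in any of these fits.

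In the other direction, AUIFUG00000010366 had 34.4, 47.9 and 60.7 CPM in cryopreserved libraries, against 27.3, 45.3 and 58.3 CPM in fresh libraries, with a log2 fold change of 0.08 and a standard error of 0.17. AUIFUG00000015084 had 83.1, 135.5 and 180.5 CPM in cryopreserved libraries and 87.5, 125.2 and 147.2 CPM in fresh libraries, with a log2 fold change of 0.07 and a standard error of 0.20. Both were higher after cryopreservation in 18 of 30 males. With TMM both differences were smaller than their standard errors, while DESeq2 gave 0.12 with a standard error of 0.07 for AUIFUG00000010366 and 0.13 with 0.10 for AUIFUG00000015084.

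Across males, the cryopreserved and fresh levels of the 200 genes went together only weakly. Pearson's r across the 30 males between the cryopreserved and the fresh level had a median of 0.31 over the 200 genes, ranging from -0.30 to 0.75, and a median of 0.46 over the other genes above 10 CPM. It was below 0 for 14 and above 0.5 for 35 of the 200. All levels of a library carry its depth and evenness, and these values are a description. Between the libraries of a male a member differed by a median of 0.15 on the log2 scale, where the other genes differed by 0.48. The rule kept genes with little spread between libraries, so the small differences were in part set by the choice. Whether the lower r also follows from the choice was not tested. The single widest difference within a male was 0.27 to 1.33 on the log2 scale over the 200 genes.

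On the scale of total counts the 200 genes had small slopes with depth, which follows from their choice as steady on that scale. Slopes are the log2 change in level per doubling of total counts, from edgeR fits with total-count scaling in the 30 libraries of a treatment. In cryopreserved libraries 29 of the 200 genes (14.5%) rose and 4 (2.00%) fell with depth at an adjusted p under 0.05, beside 54.6% and 10.4% of all 23316 genes tested. Over the 200 genes the slope had a median of 0.02, ranging from -0.11 to 0.14, and over all genes a median of 0.27. In fresh libraries 0 of the 200 genes rose and 0 fell, beside 0.0775% and 0.564% of all 23218 genes, and 31 of the 200 had an unadjusted p under 0.05, beside 15.8% of all genes. The median slope in fresh libraries was 0.03 over the 200 genes and 0.16 over all genes. The difference of slopes between treatments was tested as an interaction over all 60 libraries, without pairing the libraries of a male. In that test 0 of the 200 genes and 0 of all genes (0%) passed. At an unadjusted p under 0.05 in edgeR there were 5 of the 200 (2.50%) and 993 of all genes (3.07%).

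The calls with depth in cryopreserved libraries changed with the libraries and the scale used. Without the 8 cryopreserved libraries under 50% of the median total, 0 of the 200 genes and 0 of all 25257 genes were called by edgeR, with 2 and 145 at an unadjusted p under 0.05. The median slope was then 0.03 over the 200 genes and 0.23 over all genes, while the median standard error over the 200 was 0.08, against 0.04 with all libraries. With TMM 0 of the 200 genes rose and 140 (70.0%) fell with depth, with a median slope of -0.19, beside 22.5% of all genes that fell. Depth also went with the median level of a library, with an r of 0.66 between their log2 values over the 30 cryopreserved and of 0.28 over the 30 fresh libraries. With the median level as a covariate, 3 of the 200 genes rose and 0 fell with depth in cryopreserved libraries, beside 2.32% and 2.74% of all genes. The median slope was then 0.03 over the 200 genes and 0.01 over all genes.

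Most genes moved with the evenness of a library, and the 200 had slopes near 0. In cryopreserved libraries 65.3% of all genes tested rose and 23.2% fell with the library's median CPM, against 46 (23.0%) and 17 (8.50%) of the 200. In fresh libraries 63.4% of all genes rose and 25.1% fell, against 20 and 46 (23.0%) of the 200. The slope, per doubling of the library's median, had a median of 0.02 over the 200 genes in cryopreserved libraries and of -0.01 in fresh libraries, against 0.61 and 0.52 over all genes. Over the 200 genes the slope ran from -0.15 to 0.24 in cryopreserved and from -0.18 to 0.15 in fresh libraries. Without libraries under 50% of the median total, 35 of the 200 (17.5%) rose and 45 (22.5%) fell in cryopreserved libraries, beside 68.2% and 22.4% of all genes. In fresh libraries 13 (6.50%) rose and 64 (32.0%) fell, beside 64.4% and 24.7% of all genes. A gene with a steep slope would not have been steady in CPM, so the small slopes follow from the choice. The rise of most genes is in part built in as well, because the library's median is computed from those genes. A small slope can have either sign, and the mix of signs was not tested.

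**Figure D4:**
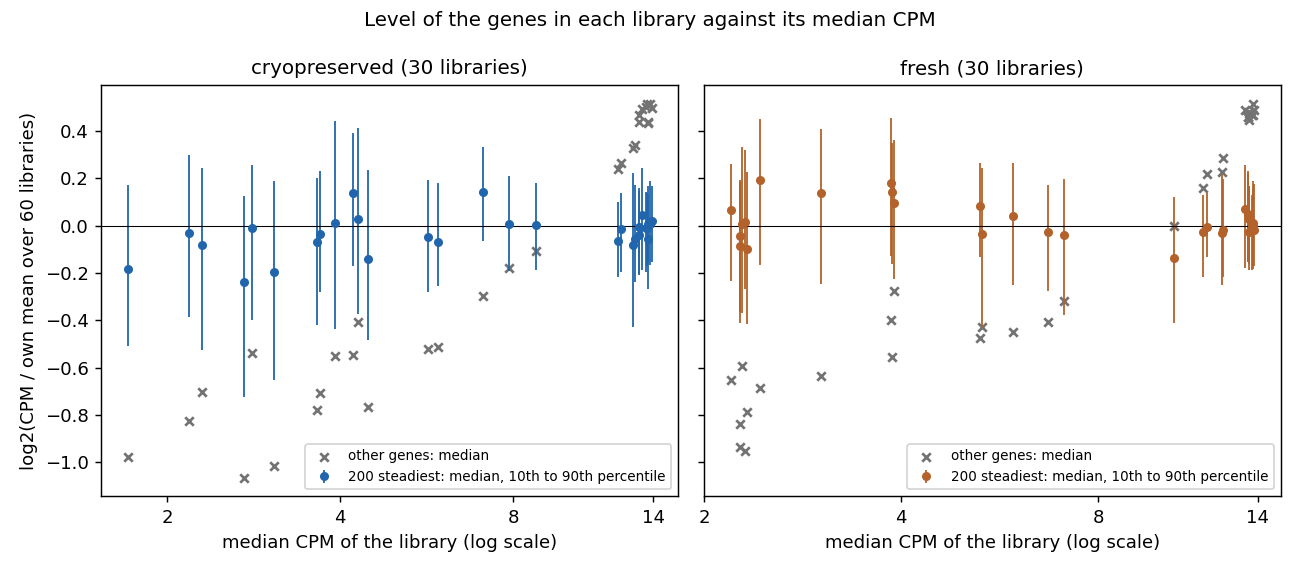
Level in each library on the log2 scale relative to a gene's own mean, against the library's median CPM (log scale), for the 30 cryopreserved (left) and 30 fresh libraries (right). Points with bars are the median and the 10th to 90th percentile of the 200 genes, and crosses are the median of the other genes above 10 CPM (with 0.5 added to their CPM). The crosses climb with the library's median while the points stay near 0. Both are largely built in, since crosses and library median come from the same levels and the 200 genes were chosen as steady.

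The sign of the slope differed among members and was shared by the treatments for most of them. Of the 200 genes, 153 (76.5%) had slopes of the same sign in cryopreserved and fresh libraries, beside 96.3% of the 22411 genes tested in both. Slopes near 0 can take either sign, so the lower share among the 200 follows in part from their choice. The 16 genes that rose in both made up 34.8% of those that rose in cryopreserved and 80.0% of those that rose in fresh libraries, and the 14 that fell in both made up 82.4% and 30.4% of those that fell. As shares of all genes tested in both, 61.1% rose and 23.2% fell in both treatments, against 16 and 14 of the 200. Calls in opposite directions were made for 0 of the 200 and 1 of all genes, and 101 of the 200 were called in neither. The libraries come from the same males, so the treatments are no independent repeats. The test of the difference of slopes did not pair the libraries of a male. In it 0 of the 200 genes and 0 of all genes (0%) passed. At an unadjusted p under 0.05 in edgeR there were 13 of the 200 and 2902 of all genes (8.97%). The 13 members were 6.50% of the 200, a smaller share than among all genes. All 13 had the larger slope in cryopreserved libraries, and the share of this direction over all genes is not given here.

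AUIFUG00000000461 and AUIFUG00000025015 had the most positive slopes of the list. AUIFUG00000000461 had 248.4, 418.1 and 487.7 CPM as lowest, median and highest level in cryopreserved and 263.0, 430.4 and 484.1 CPM in fresh libraries, and its slope was 0.24 (SE 0.05, edgeR adjusted p = 4.3e-05) in cryopreserved and 0.14 (SE 0.05, edgeR adjusted p = 0.00616) in fresh libraries. AUIFUG00000025015 had 36.4, 65.3 and 80.6 CPM in cryopreserved and 46.9, 68.1 and 86.3 CPM in fresh libraries, and slopes of 0.20 and 0.14. Their lowest levels lay in the cryopreserved libraries of males 35 and 36, whose median genes had 3.91 and 3.08 CPM. Both libraries were also under 50% of the median total. Without all such libraries, AUIFUG00000000461 had a slope of 0.20 (SE 0.06, edgeR adjusted p = 0.0033) in cryopreserved libraries. In fresh libraries its slope was then 0.09 (SE 0.05, edgeR adjusted p = 0.081) and was not called. AUIFUG00000025015 then had slopes of 0.20 and 0.13, both called. AUIFUG00000001018 and AUIFUG00000010502 had the most negative slopes, -0.15 and -0.14 in cryopreserved and -0.16 and -0.17 in fresh libraries. AUIFUG00000001018 had 62.1, 75.5 and 110.8 CPM in cryopreserved and 64.9, 77.2 and 110.9 CPM in fresh libraries. AUIFUG00000010502 had 52.1, 62.0 and 89.98 CPM in cryopreserved and 50.4, 62.6 and 92.0 CPM in fresh libraries.

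Among genes above 10 CPM the slope with the library's median fell as the count level rose. Its median was 0.89 in cryopreserved and 0.82 in fresh libraries for genes from 10 up to 20 CPM, and 0.54 and 0.47 for genes up to 50 CPM. It was 0.13 and 0.07 for genes from 50 up to 100 CPM, and -0.35 in both treatments for genes up to 200 CPM. Genes at 500 CPM or more had -1.31 and -1.07. The median slope thus passed 0 between the classes that meet at 100 CPM. This order is in part built in, since the library's median is taken from the same levels. Members from 20 up to 50 CPM had a median slope of 0.02 in cryopreserved and of -0.00091 in fresh libraries, and members from 200 up to 500 CPM had 0.04 and -0.01.

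The 200 genes were even on the scale of total counts, which chose them, and not on that of TMM. With TMM-scaled CPM their coefficients of variation were 38.2% to 57.4%, and 0 of them were among the 200 steadiest, or the first 1000, of that scale. With DESeq2 size factors the values were 48.7% to 67.7%, again with 0 shared. With TMM all 200 genes fell with the library's median in both treatments, by a median of 0.51 on the log2 scale per doubling in cryopreserved and 0.37 in fresh libraries (edgeR, adjusted p under 0.05), beside 40.6% and 37.9% of all genes. The change of scale moved the median slope of all genes to 0.07 in cryopreserved and 0.16 in fresh libraries. TMM factors ranged from 0.543 to 1.88 over cryopreserved and from 0.426 to 1.87 over fresh libraries. In cryopreserved libraries the factor was 0.543 for male 3, with a median of 3.69 CPM, and 1.88 for male 4, with 13.4 CPM. Genes chosen as even in CPM fall once divided by a factor that rises with the median. The calls and the wider spread with TMM thus follow from the choice and are a description. The counts do not tell which scale is nearer to RNA per sperm cell, and fewer cells and less RNA per cell cannot be told apart in these libraries.

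**Figure D5:**
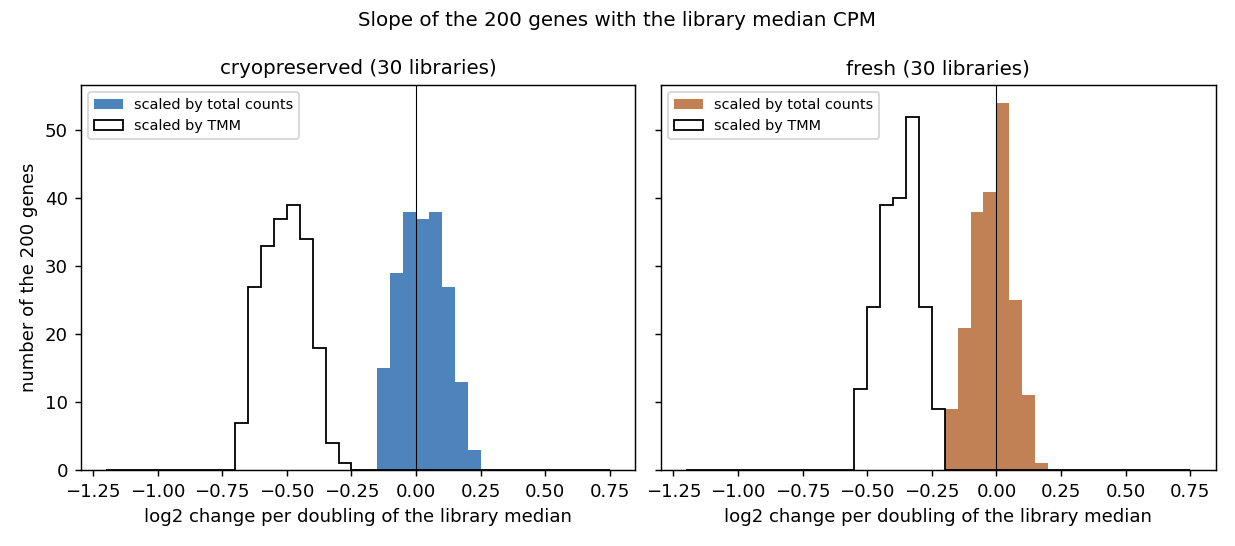
Histograms of the slope of the 200 genes with the library's median CPM (log2 change per doubling) in the 30 cryopreserved (left) and 30 fresh libraries (right). Filled bars are slopes with total counts, around medians of 0.02 and -0.01, and outlines are slopes with TMM, around medians of -0.51 and -0.37.

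Correlations among the 200 genes were mostly low, and values over 0.5 outnumbered those under -0.5. Over the 19900 pairs of members, Pearson's r of log2 CPM had a median of 0.13 over cryopreserved and of 0.12 over fresh libraries. It was over 0.5 for 9.40% and 9.19% of pairs and under -0.5 for 1.74% and 1.44%. These shares were not computed for pairs of other genes, and whether choosing genes with little spread lowers r was not tested. The members most like AUIFUG00000016699 over the 60 libraries were AUIFUG00000019449, with an r of 0.47, and AUIFUG00000011617, with an r of 0.44, and the median r of that gene with the others was 0.08. All levels of a library carry its depth and evenness, and these values are a description.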

How the data were processed

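RNA sequencing libraries of 60 sperm samples were grouped by the treatment in their titles, and the male number pairs the libraries of an animal. The authors deposited raw counts per gene in 1 table per treatment. Per the submitters' processing notes, FastQC 0.11.6, Trimmomatic 0.39, TopHat2 2.1.1 and bedtools were used. The sources used here give no genome build, annotation or counting rule. All count columns were assigned (0 unused). For the fresh library of male 43 the column name ends in another digit than the label, and male and treatment decided its place. Of 33677 identifiers, 0 matched the 26870 genes of the RefSeq table of Billie_1.0, so lists of marker and reference genes could not be applied.

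The members, lists and rule for named genes (the extremes of spread, level, difference and slope, the limit of the list, and the genes most like the steadiest) were chosen with earlier results of these data known. Cryopreserved sperm was compared with fresh sperm in edgeR 4.0.16 and R 4.3.3 (filterByExpr, TMM, quasi-likelihood test, treatment as the only term). Slopes with log2 total counts and log2 median CPM were fitted within each treatment with total-count scaling. P-values were adjusted over all genes by the Benjamini-Hochberg method, at a threshold of 0.05. The scripts were tested on simulated data. DESeq2 1.42.0, limma 3.58.1, other scalings, filters, rules and sets of libraries were alternatives. The deviations of a male's libraries from their group means, over genes above 10 CPM, correlated with a median r of 0.84 (range -0.83 to 0.99), and over 0.1 in 22 of 30 males. The pairing itself comes from the labels. No r between libraries of different males is given here, so these values do not test the pairing.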

Additional observations from a re-analysis of the deposited data

How the results depend on the processing

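The list of 200 genes was unaltered by a minimum mean of 5 or 20 CPM or by no minimum (200 shared). It shared 171 genes with the list by SD of log2(CPM + 1), 178 with counting error removed, 184 without male 4, 131 on cryopreserved libraries, 136 on fresh libraries, 128 without libraries under 50% of the median total and 116 by median absolute deviation over median. It shared 0 genes with TMM and 0 with DESeq2 size factors. For cryopreserved against fresh sperm, 0 genes were called in every alternative run, the male as a replicate block included (0 of the 200 genes, median log2 fold change -0.08 with TMM and -0.04 with total counts). The median log2 fold change of the 200 genes was -0.05 by limma voom and -0.0019 by DESeq2. Without male 4, 29 members rose and 4 fell with depth in cryopreserved libraries, beside 52.2% and 10.6% of all genes. With the library's median 43 rose and 15 fell there, beside 63.3% and 24.5% of all genes. In fresh libraries 22 rose and 43 fell with the library's median, beside 62.4% and 26.0% of all genes. With TMM, the slope with depth in cryopreserved libraries was called positive for 0 and negative for 140 members, with a median of -0.19, and the median in fresh libraries was -0.039. With TMM, the slope with the library's median was called positive for 0 and negative for 200 members in each treatment, with medians of -0.51 in cryopreserved and -0.37 in fresh libraries, and the median difference of depth slopes between treatments was -0.18. AUIFUG00000000461 then had slopes of -0.29 and -0.22, and AUIFUG00000025015 of -0.32 and -0.22. Without libraries under 50% of the median total, which leaves 22 cryopreserved and 21 fresh libraries, 0 members rose and 0 fell with depth in cryopreserved libraries. Without them, 35 members rose and 45 fell with the median level in cryopreserved libraries, beside 68.2% and 22.4% of all genes. The median slope of the members there was -0.0010. In fresh libraries 13 members rose and 64 fell with the median level, beside 64.4% and 24.7% of all genes. Fits with both measures were chosen after seeing the data. There 3 members rose and 0 fell with depth in cryopreserved libraries, beside 2.32% and 2.74% of all genes. In fresh libraries 6 members rose and 0 fell with depth, beside 0.92% and 2.41% of all genes. With the median level in cryopreserved libraries 26 members rose and 23 fell, beside 64.4% and 22.8% of all genes. Beyond the construction of each alternative, the cause was not tested. Depth limits the genes of low level, since 3 counts amount to 3.23 CPM at the lowest total.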
